A study of Mus musculus with 6 samples.

Results

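The pre-B cell receptor chains are 7 genes, Igll1, Vpreb1, Vpreb2, Vpreb3, Cd79a, Cd79b and Ighm, out of 19938 genes measured on the arrays. They were chosen by name, as the surrogate light chain, the mu heavy chain and the signalling chains of this receptor, and every probe annotated to exactly 1 of these symbols was kept. That gave 9 probes, 3 of them for Ighm and 1 for each of the other genes, and a gene with several probes is represented by its brightest. The cells were BCR-ABL1-transformed pre-B cells from 4-week-old Balb/c mice, a mouse model of Philadelphia chromosome-positive acute lymphoblastic leukemia, and all 6 samples carry the label Blnk KO. The 3 Blnk samples were transduced with Blnk (Slp65), and the 3 pMIG samples with pMIG, a retroviral vector that carries GFP. RNA was taken from sorted GFP-positive cells 5 days after transduction. The labels name no promoter for the transduced Blnk. They are silent on whether replicates are separate cultures or mice, so a p-value here reflects the scatter among these samples alone, and that scatter may be technical.

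In early B cell development the mu heavy chain has no conventional light chain partner. It pairs with a surrogate light chain made of a VpreB protein and lambda5, the product of Igll1, and reaches the surface together with the Cd79a and Cd79b chains, whose cytoplasmic tails are phosphorylated by SRC-family kinases and bind the kinase SYK. BLNK is the adaptor that couples SYK to BTK and phospholipase C gamma 2, and mouse pre-B cells that receive this signal go on to switch off the surrogate light chain genes.

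Blnk itself was checked first. Its intensity was 2714, 3342 and 3022 in the Blnk samples, against 972, 926 and 1013 in the pMIG samples, and the groups were far apart. No source used here says whether the probe reads the deleted part, and the level under pMIG therefore leaves the genotype unchecked. Intensities are the deposited linear values, in arbitrary units, and the median over all probes was 67 to 70 on every array.

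The surrogate light chain genes Vpreb1 and Vpreb2 are shown first by their promoter windows, which share a nearly identical stretch. Their RefSeq promoter windows (GRCm38.p6, 250 bases before to 50 after a transcript start) overlap in a stretch of 156 bases with 153 identical and 3 different bases, 98.1% identity. The stretch begins with the first base of the Vpreb2 window and ends with the last base of the Vpreb1 window. Its length is thus set by the windows, and likeness beyond it was not compared. It lies from -106 to 49 relative to the listed start of Vpreb1, and from -250 to -95 relative to that of Vpreb2. The windows of these genes are therefore not placed alike. It is shown for both genes with the differing bases in capitals, Vpreb1 from chr16:16869206-16869361 on the minus strand and Vpreb2 from chr16:17980315-17980470 on the plus strand.
Vpreb1: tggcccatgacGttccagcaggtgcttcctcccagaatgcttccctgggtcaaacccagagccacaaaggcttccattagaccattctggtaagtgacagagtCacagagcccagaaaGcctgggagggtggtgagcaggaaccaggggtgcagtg
Vpreb2: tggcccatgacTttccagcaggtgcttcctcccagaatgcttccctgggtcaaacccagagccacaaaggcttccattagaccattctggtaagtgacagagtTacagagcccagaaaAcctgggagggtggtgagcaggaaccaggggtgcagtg
In the RefSeq gene order, Igll1 and Vpreb1 are neighbours with 0 genes between them, and 52 genes lie between Vpreb1 and Vpreb2. By the listed starts, the stretch lies mostly outside the transcripts, and it says nothing of what the probes read. The Vpreb2 window reads atg at its listed start, which may thus be a start codon and not where the transcript begins. How much of the stretch is transcribed was not tested.

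With Blnk, Vpreb1 fell and Cd79a rose, and the other 5 chains did not pass the test, which was limma across all genes with Benjamini-Hochberg adjustment and a threshold of 0.05. Thus 2 of 7 genes were called, where 3.61% of all genes were called (2.51% higher and 1.10% lower in the Blnk samples). Both counts fell when an array was left out: 0 chains were higher whichever array it was, 0 chains were called without pMIG 2 or without pMIG 3, and over all genes 195 to 304 were higher and 72 to 133 lower, against 500 and 220 with all 6 arrays. The 3 surrogate light chain genes of the receptor, Igll1, Vpreb1 and Vpreb2, had all Blnk samples below all pMIG samples, and Vpreb3, Cd79a, Cd79b and Ighm had them above. Groups that do not overlap were found for 20.0% of all genes, 8.15% with Blnk lower and 11.8% with Blnk higher. An unadjusted p under 0.05 was found for 6 of the 7 genes, against 15.2% of all genes. The chains were chosen with earlier results of these data known, so these shares are descriptions. The median log2 fold change of the 7 genes was 0.14 and their mean was -0.0065, against a median of 0 over all genes. These are bulk samples, in which fewer cells of a type and less RNA per cell cannot be told apart.

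**Figure D1:**
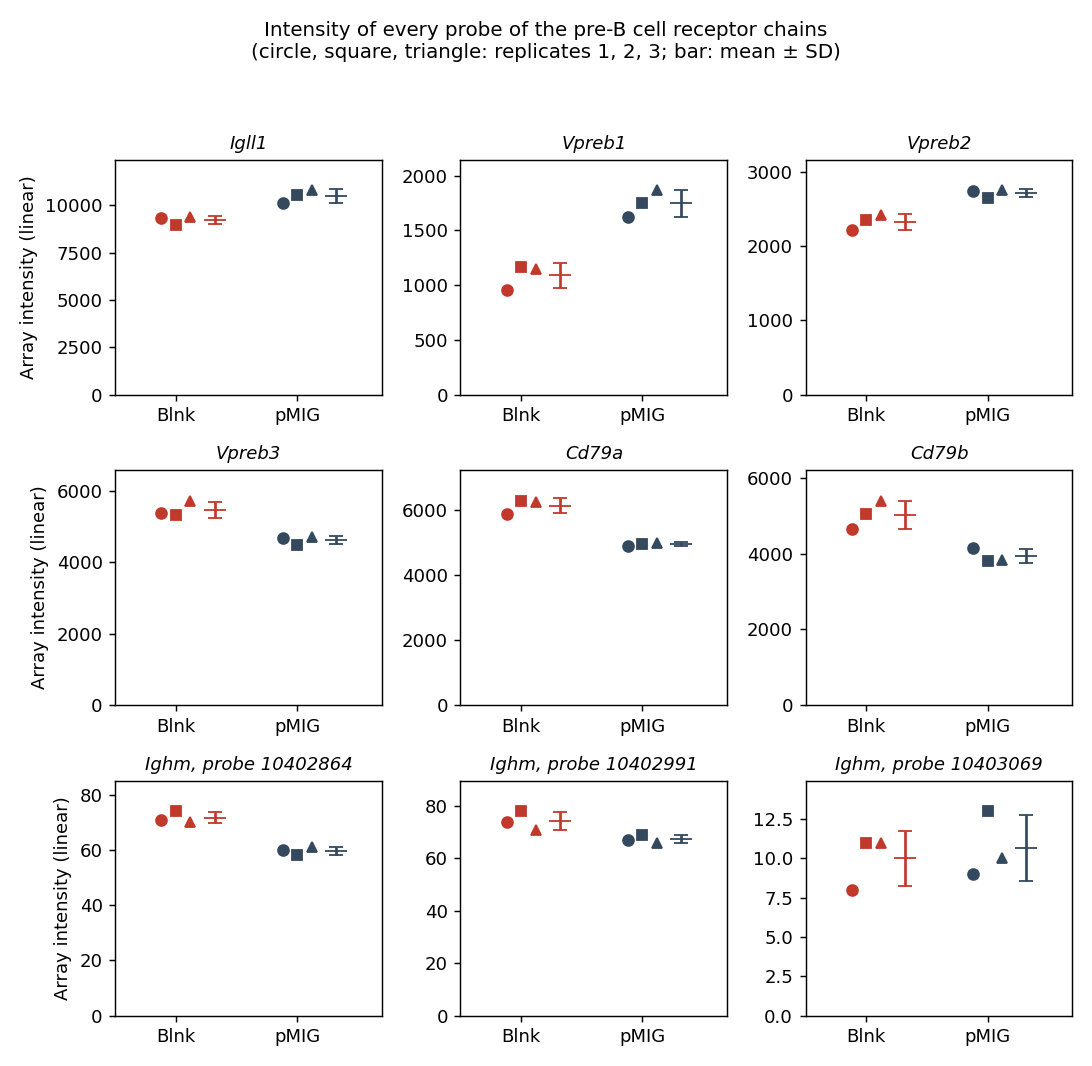
Linear array intensity of all 9 probes (vertical axes, each from 0) in the 3 Blnk and the 3 pMIG samples, with a point for each array and mean ± SD beside it. Vpreb1 shows the widest gap for its level, with 956 to 1167 in the Blnk samples and 1624 to 1867 in the pMIG samples, and the groups overlap only for the dimmest Ighm probe.

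Vpreb1, the VpreB part of the surrogate light chain, had intensities of 956, 1167 and 1146 in the Blnk samples, against 1624, 1748 and 1867 in the pMIG samples. The lowest pMIG sample was thus well above the highest Blnk sample. The means were 1089.7 ± 116 in the Blnk samples and 1746 ± 122 in the pMIG samples (SD, n = 3 each), which gave a log2 fold change of -0.68 (SE 0.0992, 95% interval -0.91 to -0.45; limma adjusted p = 0.00976) and a ratio of 0.623. Of all genes, 1.24% had a larger absolute log2 fold change. The call was lost without pMIG 2 (limma adjusted p = 0.0502) and without pMIG 3 (0.0688), with log2 fold changes of -0.68 and -0.63. It was kept, but near the threshold, with all probes tested (limma adjusted p = 0.0452) and with intensities floored at 16 (0.0411).

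Vpreb2, which encodes the near-identical second VpreB protein of the mouse, was at 2208, 2344 and 2421 in the Blnk samples, against 2738, 2648 and 2749 in the pMIG samples. The groups did not overlap, but the gap was smaller than for Vpreb1 and the gene did not pass. The log2 fold change was -0.22 (SE 0.0683, 95% interval -0.38 to -0.06; limma adjusted p = 0.157). The log2 difference Vpreb1 minus Vpreb2 within an array was -1.21, -1.01 and -1.08 in the Blnk samples, against -0.75, -0.60 and -0.56 in the pMIG samples. It was therefore lower in every Blnk sample, by -0.46 (SE 0.0837), with an exact two-sided permutation p of 0.1, the smallest that 3 samples against 3 allow. This design cannot reach a p under 0.05 by permutation. How far each probe reads the other gene's transcript was not tested.

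Igll1 encodes lambda5, the other part of the surrogate light chain. It was at 9313, 8968 and 9383 in the Blnk samples, against 10104, 10559 and 10793 in the pMIG samples. All Blnk values were below all pMIG values, and the signal was far above the array medians. The log2 fold change was -0.19 (SE 0.0659, 95% interval -0.34 to -0.03) and did not pass (limma adjusted p = 0.227). In 20.1% of all genes the absolute log2 fold change was larger.

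Vpreb3 is a related protein that binds newly made mu chains inside the cell and is not part of the surface receptor. It was at 5376, 5317 and 5728 in the Blnk samples, against 4685, 4497 and 4698 in the pMIG samples. It thus lay on the other side of its pMIG level than Vpreb1 and Vpreb2, with separate groups. The log2 fold change was 0.24 (SE 0.0672, 95% interval 0.09 to 0.40; limma adjusted p = 0.119).

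Cd79a, also called Ig-alpha, is the first of the signalling chains. Its intensities were 5865, 6279 and 6233 in the Blnk samples, against 4886, 4949 and 4993 in the pMIG samples. The pMIG samples were close together and all below the Blnk samples. The means were 6126 ± 227 in the Blnk samples and 4943 ± 53.8 in the pMIG samples (SD, n = 3 each), a ratio of 1.24 and a log2 fold change of 0.31 (SE 0.0653, 95% interval 0.16 to 0.46; limma adjusted p = 0.0468). This call is near the threshold: it was lost with any array left out (limma adjusted p 0.0678 without Blnk 1 to 0.151 without pMIG 3), with log2 fold changes of 0.29 to 0.34. It was also lost when quantile normalization was repeated (limma adjusted p = 0.0599), arrays were centred on their medians (0.102) or the adjustment ran over all probes (0.0926).

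Cd79b, Ig-beta, the partner of Cd79a, was at 4655, 5032 and 5395 in the Blnk samples, against 4143, 3810 and 3838 in the pMIG samples. Every Blnk value was above every pMIG value, with a wider spread among the Blnk samples than for Cd79a. The log2 fold change was 0.35 (SE 0.0804, 95% interval 0.17 to 0.54), and the gene missed the threshold (limma adjusted p = 0.0616). The log2 difference Cd79a minus Cd79b was 0.29 ± 0.069 in the Blnk samples and 0.33 ± 0.081 in the pMIG samples (SD, n = 3 each). The changes of these partner chains differed by -0.04 (SE 0.0613; exact two-sided permutation p = 0.5), less than the spread between arrays.

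Ighm encodes the mu heavy chain, and its 3 probes were dim. The brightest, probe 10402991, was at 74, 78 and 71 in the Blnk samples, against 67, 69 and 66 in the pMIG samples, which is about the array median of 67 to 70. Its log2 fold change was 0.14 (SE 0.0686, 95% interval -0.02 to 0.30; limma adjusted p = 0.397). Probe 10402864 was at 71, 74 and 70 in the Blnk samples, against 60, 58 and 61 in the pMIG samples. In the limma fit over all 35421 probes its log2 fold change was 0.26 (SE 0.0609; adjusted p over all probes 0.132, where 1.42% of all probes were called and 17.8% had groups that do not overlap). Probe 10403069 was at 8, 11 and 11 in the Blnk samples, against 9, 13 and 10 in the pMIG samples, and its groups overlapped. The probes of this gene therefore differed, 2 of them with separate groups and the third near the bottom of the array scale, where rounding to whole numbers is coarse. No source used here says which part of the mu locus each probe reads, so these signals do not give the amount of mu transcript.

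**Figure D2:**
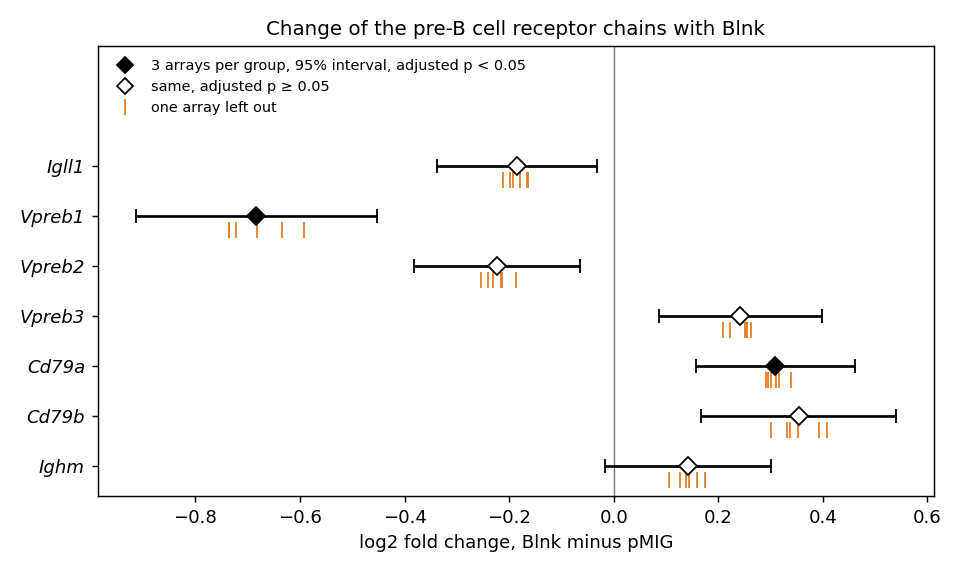
Log2 fold change, Blnk minus pMIG, of each chain (horizontal axis) with its 95% interval, filled where adjusted p was under 0.05, and below it the values with each array left out. Vpreb1 at -0.68 and Cd79a at 0.31 are the filled points, and no value crosses 0 when an array is left out.

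Profiles across the 6 arrays were compared between chains. Each gene's log2 values were centred on their own mean, and likeness was the root mean square difference between profiles, where 0 means identical. Cd79a was 0.056 from Vpreb3 and 0.0652 from Cd79b, and Igll1 was 0.059 from Vpreb2. Vpreb1 was farther from every other chain, from 0.245 (Vpreb2) to 0.53 (Cd79b), and its own root mean square swing was 0.359. Blnk 1 had the lowest Vpreb1 and Vpreb2 values of all samples, and among the Blnk samples it also had the lowest Cd79a and Cd79b values. These distances describe 6 arrays that share their groups and carry no test.

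**Figure D3:**
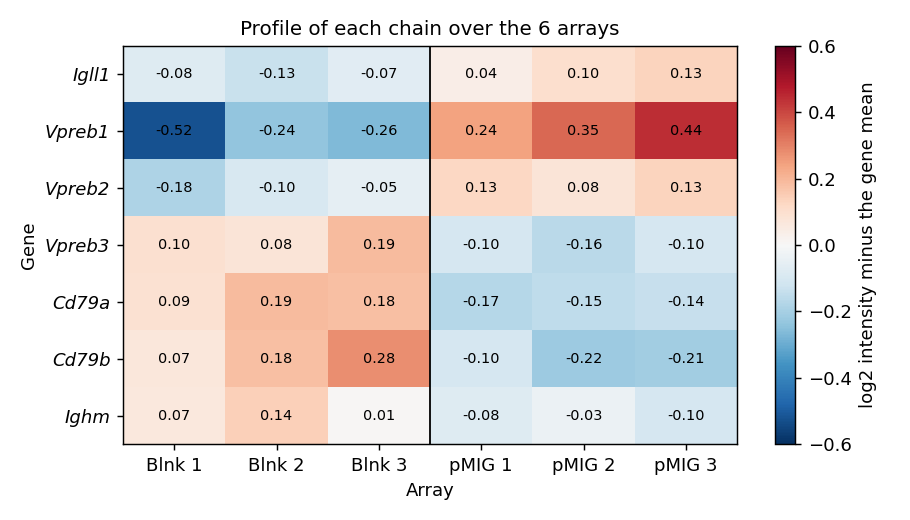
Log2 intensity of each chain minus its mean over the 6 arrays (colour and printed value), with the 3 Blnk arrays left of the line and the 3 pMIG arrays right of it. The surrogate light chain genes Igll1, Vpreb1 and Vpreb2 are below their mean in all Blnk arrays, and the other 4 genes are above it.

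By the same measure, the genes with profiles nearest to each chain were sought among those with a mean level above the median gene. The other chains were not excluded from this search, and none was among the 2 genes nearest to any chain. For Vpreb1 these were Stat4 (0.0205) and Ptpn3 (0.0342), a cytokine-activated transcription factor and a tyrosine phosphatase. Stat4 was at 65, 80 and 78 in the Blnk samples, against 114, 120 and 125 in the pMIG samples. For Cd79a they were Nek2 (0.0147), a mitotic kinase, and Ubl5 (0.0204), a ubiquitin-like protein of splicing. Cd79b was nearest to Cdkn2d (0.0294), a cell cycle inhibitor, and Zfp513 (0.0307), Vpreb3 to the G protein subunit Gnai2 (0.0123) and to Sike1 (0.0219). Igll1 was nearest to Lancl1 (0.0176) and Mms19 (0.0199), Vpreb2 to Lmf1 (0.0145) and Tm7sf2 (0.018), and Ighm to the copper transporter Atp7a (0.0216) and to Zdhhc9 (0.0233).

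Promoter windows of RefSeq were at hand for 5 of the 7 chains, all but Cd79b and Ighm, and were searched on both strands for 5 motifs of B-lineage factors. These were CCCNNGGG (EBF1 core), CAGGTG (E-box of E2A type), ATTTGCAT (octamer), TGGGAA (Ikaros family) and CTTTGA (LEF1/TCF). Shares are over the 32851 windows of the same length, of which a gene can have several. CAGGTG occurred in 4 of the 5 chains' windows, those of Igll1, Vpreb1, Vpreb2 and Cd79a, and in 20.2% of all windows. In Vpreb1 and Vpreb2 it is within the shared stretch, so these are not separate occurrences. The octamer occurred in Vpreb3 alone among the 5, from base -45 to -38 relative to the start, and in 1.74% of all windows. CCCNNGGG matched in Igll1 (13.7% of all windows) and TGGGAA in Vpreb2 (25.6%), while CTTTGA (16%) matched in 0 of the 5. The TGGGAA match of Vpreb2, from base -64 to -59, lies past the shared stretch, where the Vpreb1 window has ended. The corresponding bases of Vpreb1 were not searched, so this match does not set the genes apart. As the listed start of Vpreb2 may be a start codon, the match may also lie within the transcript. The windows of Cd79a, the chain that rose, and of Vpreb3, which holds the rarest matched motif, follow with matches in capitals, Cd79a from chr7:24897247-24897546 and Vpreb3 from chr10:75948050-75948349, both on the plus strand.
Cd79a: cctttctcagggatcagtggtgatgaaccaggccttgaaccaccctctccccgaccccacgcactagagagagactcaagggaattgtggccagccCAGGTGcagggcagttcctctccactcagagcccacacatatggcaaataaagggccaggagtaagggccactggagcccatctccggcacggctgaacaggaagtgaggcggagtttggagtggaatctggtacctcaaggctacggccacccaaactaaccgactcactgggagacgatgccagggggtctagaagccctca
Vpreb3: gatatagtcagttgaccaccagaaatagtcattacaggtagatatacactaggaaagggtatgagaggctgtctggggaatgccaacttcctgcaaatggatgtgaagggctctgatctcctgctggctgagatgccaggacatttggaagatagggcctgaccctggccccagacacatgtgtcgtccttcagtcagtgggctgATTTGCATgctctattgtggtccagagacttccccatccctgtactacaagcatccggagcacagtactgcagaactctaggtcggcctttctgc
A match is a description of the letters and says nothing of binding in these cells. The search took exact letters only, so a window without a match may still hold a site that departs from them. This includes the Cd79a window, where CCCNNGGG did not match.

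Factors known from the mouse to act on the receptor chain genes were measured too. Of 19 such regulators, 3 rose and 1 fell (21.1% called, against 3.61% of all genes), with a median log2 fold change of 0.03. Spib, an ETS factor, rose by 1.12 on the log2 scale (limma adjusted p = 0.000918), Irf4 by 0.40 (0.0164) and Ikzf3, or Aiolos, by 0.39 (0.0447). Lef1, a WNT effector, fell by 0.48 on the log2 scale (limma adjusted p = 0.00947). With an array left out, Irf4 passed only without pMIG 2 (limma adjusted p = 0.0483, up to 0.0838 without pMIG 3), Ikzf3 never passed (0.0656 without Blnk 1 to 0.146 without Blnk 3) and Lef1 did not pass without pMIG 3 (0.054), so that 1 regulator rose with each array left out except pMIG 2, which left 2. Ebf1, an activator of surrogate light chain and Cd79a transcription, was at 1709, 1894 and 1705 in the Blnk samples, against 2090, 2035 and 2190 in the pMIG samples. Its groups were separate, and it did not pass (log2 fold change -0.25; limma adjusted p = 0.142). Pax5 (-0.05; limma adjusted p = 0.803) and Tcf3 (0.0014; limma adjusted p = 1), which encodes E2A, overlapped between groups.

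Downstream of the chains, genes of proximal receptor signalling rose in part. Of 29 measured, 9 rose and 0 fell by limma (2 were lower at an unadjusted p under 0.05), with a median log2 fold change of 0.24, and the transduced Blnk is 1 of the 9. That is 31% called, against 3.61% of all genes (2.51% higher and 1.10% lower). With an array left out, 6 to 8 of these genes rose. Rasgrp3, an activator of RAS, rose by 1.92, the scaffold Bank1 by 1.12 and the SRC-family kinase Blk by 0.88. Syk, the kinase that binds the Cd79 tails, was at 1444, 1620 and 1579 in the Blnk samples, against 1052, 1032 and 1042 in the pMIG samples. Its rise of 0.57 (limma adjusted p = 0.00502) stood beside values of -0.10 for Btk (limma adjusted p = 0.601, groups overlapping) and 0.24 for Plcg2 (limma adjusted p = 0.175). Of 12 coreceptors and receptor modulators, 5 rose and 0 fell by limma (0 were lower at an unadjusted p under 0.05), with a median of 0.33. That is 41.7% called, against 3.61% of all genes. Fcmr, a receptor for secreted IgM, rose by 4.77, Ms4a1 (CD20) by 1.52, Cd72 by 0.63 and Pecam1 by 0.64 on the log2 scale.

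**Figure D4:**
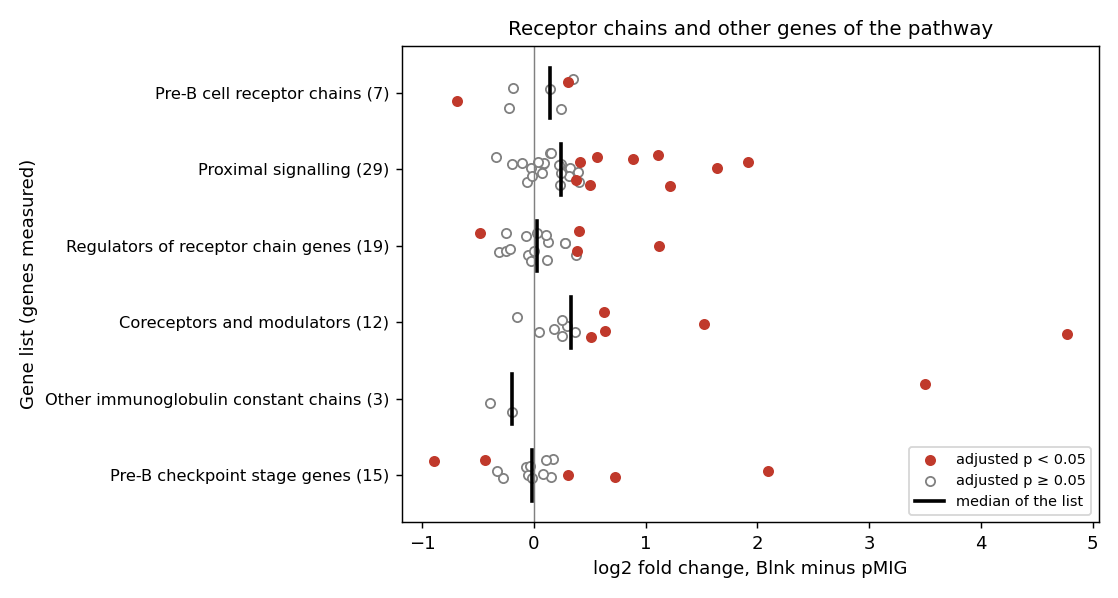
Log2 fold change, Blnk minus pMIG (horizontal axis), of each gene in the receptor and in 5 related lists, filled where adjusted p was under 0.05, with the list median as a bar. The 7 chains lie between -0.68 and 0.35, and the coreceptor list reaches 4.77 with Fcmr.

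Of the other immunoglobulin constant chain list, 3 of 12 entries were measured, and 33.3% of these were called, against 3.61% of all genes. Jchain, which joins IgM units and is not itself a constant chain, rose by 3.50, while Igha was at -0.39 (limma adjusted p = 0.147) and Ighg3 at -0.20 (limma adjusted p = 0.627), both dim (Igha 34 to 36 in the Blnk samples, against 38 to 51 in the pMIG samples). Among 15 genes of the pre-B checkpoint, 3 rose and 2 fell (33.3% called, against 3.61% of all genes), with a median of -0.01. Il2ra (CD25) rose by 2.09, Cd2 by 0.73 and Ccnd2 by 0.31, whereas Enpep, the BP-1 antigen of early B cells, fell by 0.89 and Myc by 0.44 on the log2 scale. With an array left out, Ccnd2 never passed (limma adjusted p 0.0908 to 0.144) and Myc passed only without Blnk 1 (0.0307, up to 0.0914 without pMIG 3), so that 1 gene fell with each array left out except Blnk 1.

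The labelled cell type was compared with its defining markers. Of the 9 pre-B markers measured, Pax5, Ebf1, Il7r and the receptor chains were bright, while Rag1 (25 to 35 over all arrays) and Dntt (20 to 28) were below the array medians. All 7 myeloid markers, among them Csf1r and Mpo, were below the median of every array, with summed intensities of 229 to 253 in the Blnk samples and 233 to 245 in the pMIG samples. Below the median of every array were also 3 of 6 T cell markers, 2 of 3 erythroid and megakaryocyte markers and 3 of 5 stromal and endothelial markers. Of the T cell markers, Cd8a was above the medians at 134 to 255 in the Blnk samples and 149 to 185 in the pMIG samples. Cd28 was also above them, at 111 to 153 in the Blnk samples and 173 to 177 in the pMIG samples. Cd3e was slightly above them at 73 to 91 over all arrays. Cd3d (19 to 26 over all arrays), Cd3g (15 to 17) and Cd4 (28 to 36) were below the medians. Summed intensities were 443 to 515 in the Blnk samples and 463 to 528 in the pMIG samples for the T cell list. They were 118 to 133 in the Blnk samples and 107 to 135 in the pMIG samples for the erythroid and megakaryocyte list, and 281 to 345 in the Blnk samples and 277 to 358 in the pMIG samples for the stromal and endothelial list. The T cell, myeloid, erythroid and megakaryocyte, and stromal and endothelial markers had 0 of 21 measured genes past the limma threshold, and 2 at an unadjusted p under 0.05. Over all genes the shares were 3.61% and 15.2%, so counts this small cannot tell these markers from other genes. Of 4 plasma cell markers, Jchain and Xbp1 rose, where 3.61% of all genes were called (2.51% higher). Jchain is also in the immunoglobulin list above. Sums were 1148 to 1303 in the Blnk samples and 643 to 701 in the pMIG samples, while Sdc1 (88 to 117 over all arrays) and Prdm1 (24 to 30) did not pass. Xbp1 passed only without pMIG 2 when an array was left out (limma adjusted p = 0.0474, up to 0.13 without pMIG 3). The part of these markers in the changes of the chains was not tested.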

How the data were processed

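Total RNA of 6 samples, labelled with biotin, was measured on 6 Affymetrix arrays, 1 per sample. The deposited table holds linear intensities rounded to whole numbers. RMA, with no version, is named per the submitters' processing notes. Groups and replicate numbers came from the sample titles. Probes were named from the platform annotation: of 35421, 21789 had 1 gene symbol, 1621 several and 12011 were not listed. For each of 19938 genes the brightest single-gene probe was used. The authors' deposited intensities were taken to log2 with nothing added. The Blnk-against-pMIG fit used limma 3.58.1 (lmFit, eBayes) under R 4.3.3, group as the only term, two-sided, adjusted by Benjamini-Hochberg over all genes; a second fit covered all probes. The script was tested on simulated data. The number of arrays limits the precision.

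The members and lists were chosen with earlier results of these data known. The text names every chain, Blnk, the 2 genes nearest in profile to each chain, up to 4 genes per list by smallest adjusted p, and cell type markers. Tcf3, Btk, Plcg2, Syk and Ccnd2 were added after their values were seen. The alternatives were the replicate number as a block, repeated quantile normalization, median centring, genes below the 40th percentile left out, intensities floored at 16, a trended robust prior, array weights, the mean of a gene's probes, all probes tested and each array left out. Figures were drawn with matplotlib 3.10.9 in Python 3.11.15. Promoter sequences are RefSeq's, GRCm38.p6. No source used here gives the build of the array annotation.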

Additional observations from a re-analysis of the deposited data

How the results depend on the processing

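Each array holds 1 sample, and with 3 per group the adjusted p of modest changes depends on how the spread is estimated. No chain reversed its direction under any of the alternatives run, and Ighm passed under none. Samples with the same replicate number did not deviate together (r = -0.187, 0.0578 and -0.12 across genes for numbers 1 to 3), so the numbers were not taken as pairs. With the replicate number as a block, Cd79a (0.31) did not pass (limma adjusted p = 0.176), Vpreb1 did (limma adjusted p = 0.0264), and the calls were 208 higher and 81 lower over all genes, against 500 and 220 without it, 0 chains higher, 1 regulator higher and 0 lower, and 1 checkpoint gene lower. Cd79a also did not pass with repeated quantile normalization (0.29), median centring (0.27) or all probes tested (0.31), each leaving 0 chains higher. Over all genes, 69.4% of the calls were higher, against 55.7% with repeated quantile normalization and 58.9% with median centring. With all 35421 probes tested, 366 probes were higher and 136 lower, a count of probes and not of genes. With dim genes left out, Vpreb3 (0.24) and Cd79b (0.35) also passed, giving 3 chains higher, 807 genes higher and 421 lower, 8 coreceptors higher and 2 regulators lower. With intensities floored at 16, Vpreb3 (0.24) passed, with 2 chains higher and 2 regulators lower. With array weights, Cd79b (0.38) passed, with 2 chains higher and 1 immunoglobulin list gene lower. With the trended robust prior, Igll1 (-0.19), Vpreb2 (-0.22), Vpreb3 (0.24) and Cd79b (0.35) passed too, giving 3 chains higher and 3 lower, 1021 genes higher and 518 lower, 15 proximal signalling genes and 9 coreceptors higher and 5 regulators lower. In 6 of these settings (repeated quantile normalization, centring, dim genes left out, floor, prior and weights) 1 proximal signalling gene was lower. By construction, leaving out an array weakens the test, and the replicate block leaves less data for estimating the spread. Leaving out dim genes adjusts over fewer genes. How far this accounts for the shifts was not tested, and neither were other causes.

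With each array left out in turn, log2 fold changes ranged from -0.74 to -0.59 for Vpreb1 and from 0.29 to 0.34 for Cd79a. Chains higher numbered 0 each time and chains lower 0 to 1. Over all genes, 195 to 304 were higher and 72 to 133 lower. Proximal signalling genes numbered 6 to 8 higher. Regulators numbered 1 to 2 higher and 0 to 1 lower, coreceptors 4 to 6 higher, immunoglobulin list genes 0 to 1 lower and checkpoint genes 2 higher and 1 to 2 lower.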
